A study of Homo sapiens with 4 samples.

Results

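The 10 genes described here encode the 4 human HSP90 paralogs (HSP90AA1, HSP90AB1, HSP90B1 and TRAP1), 4 cochaperones of HSP90 (AHSA1, STIP1, CDC37 and PTGES3) and the transcription factors HSF1 and HSF2. They were taken by symbol from a table of 14431 genes, and all 10 were listed. They were chosen by the measured difference of HSP90AA1 and HSP90AB1 between the groups below, so the fold changes of these genes are a description and carry no p-value.

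The libraries were RNA-seq of the human gastric cancer line HGC27, 2 from control cells labelled WT and 2 from cells in which AARS1 was knocked down with siRNA (siAARS1). AARS1 is the cytosolic alanyl-tRNA synthetase, which the study examined as an enzyme that attaches lactate to lysines of other proteins. Both groups were grown in DMEM without glucose and received 25 mM lactate, for 24 h per the labels (the study's text gives another duration). The data columns of the controls are named NC, and whether these cells received a control siRNA is not stated in the sources used here. No library lacked lactate, so by their labels the groups differ in the knockdown. If the controls were not transfected, they differ in transfection too. Nothing says whether replicates were separate cultures. The p-values below therefore set the difference between groups against the spread between these libraries, which may be technical.

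HSP90 proteins are ATP-driven chaperones that help kinases, steroid receptors and other clients reach or keep their active fold. HSP90AA1 (HSP90α, the stress-inducible form) and HSP90AB1 (HSP90β, the constitutive form) act in the cytosol, HSP90B1 (GRP94) in the endoplasmic reticulum, and TRAP1 in mitochondria. STIP1 passes clients from HSP70 to HSP90, CDC37 loads kinases, AHSA1 stimulates the ATPase, PTGES3 (p23) holds the closed ATP-bound dimer, and HSF1 is the main activator of heat shock genes, which HSP90 in turn keeps in check.

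The short promoter sequences below are shown because the paralogs differ in them: the heat shock element, to which HSF1 and HSF2 bind, and the endoplasmic reticulum stress element of the unfolded protein response. RefSeq windows of GRCh38.p14, from 250 bases before to 50 after each start site, were matched by symbol for 9 of the 10 genes (15 windows). HSF1 had no matched window. Positions count the start site as 0, all sequences are printed 5′ to 3′ on the strand of the gene, and capitals mark the matched motifs.
HSP90AA1, start site 2, -89 to -60 (chr14:102087104-102087133, minus strand): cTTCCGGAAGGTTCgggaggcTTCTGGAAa
HSP90AB1, start site 3, -173 to -144 (chr6:44247770-44247799, plus strand): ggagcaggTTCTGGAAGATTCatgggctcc
HSP90AB1, start site 3, -120 to -91 (chr6:44247823-44247852, plus strand): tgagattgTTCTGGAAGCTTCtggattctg
HSP90B1, -199 to -170 (chr12:103930211-103930240, plus strand): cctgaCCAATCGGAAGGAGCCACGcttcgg
HSP90B1, -94 to -65 (chr12:103930316-103930345, plus strand): gggtgCGTGGTGCGGCGCGATTGGtgggtt
STIP1, start site 2, 2 to 31 (chr11:64186173-64186202, plus strand): cttctagtaggTTCCAGAAggcggcgcgtg

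Searched on both strands, the 3-unit heat shock element (GAANNTTCNNGAA or TTCNNGAANNTTC) was found in 0.490% of 35116 promoter windows, and among these 9 genes in HSP90AA1 and HSP90AB1. HSP90AA1 held 1 match at -88 to -76, and HSP90AB1 held 2, at -165 to -153 and -112 to -100. The 2-unit form (GAANNTTC or TTCNNGAA), which lies inside the 3-unit form, was found in 13.5% of windows and also in STIP1. The endoplasmic reticulum stress element (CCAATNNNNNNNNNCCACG or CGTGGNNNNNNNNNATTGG) was found in 0.0769% of windows and among these genes only in HSP90B1, which held 2 matches. By the GENCODE v29 annotation the HSP90AB1 stretches are intronic, the HSP90AA1 stretch lies in an exon of a longer HSP90AA1 transcript, and those of HSP90B1 and STIP1 overlap noncoding exons of some of their own transcripts. HSP90AA1 and HSP90AB1 thus both held the 3-unit motif, each at only 1 start site, of 2 searched for HSP90AA1 and 3 for HSP90AB1. Whether the motif has a part in the changes given below was not tested. These are letter matches and no measure of factor binding was made in these libraries.

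The targeted gene was measured first. AARS1 (listed as AARS) read 292 and 298 CPM after siAARS1, against 428 and 417 CPM in controls, where CPM gives counts relative to library size. Its siAARS1 mean was 69.7% of the control mean (log2 fold change -0.52, SE 0.0357), so much of the transcript remained. Among 14199 genes tested, the log2 fold change of AARS1 ranked 1686 from the lowest. In its GC group (groups described below), 19.1% of the genes had a lower value and the median was -0.24. The libraries held 30653210 to 33522573 reads in the listed genes, and 1 read was worth 0.0293 to 0.0326 CPM. Of the epithelial markers looked for, KRT8 read 24.8 and 25.2 CPM in the controls and 6.61 and 5.08 CPM after siAARS1, CDH1 read 2.55 and 1.89 CPM in the controls and 0.68 and 1.05 CPM after siAARS1, also lower without overlap, and KRT18, KRT19 and EPCAM were not among the listed symbols. The mesenchymal genes VIM (4600 to 5131 CPM) and COL1A1 (1541 to 2399 CPM) were high in all 4 libraries, both lower after siAARS1, so the labelled gastric cancer line showed few epithelial markers. The leukocyte marker PTPRC and the endothelial marker PECAM1 were not listed. In bulk RNA, fewer cells of a kind and less RNA per cell cannot be told apart.

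The change across the transcriptome was broad. Of 14199 genes tested (mean of 1 CPM or more in either group), 70.7% passed limma at a Benjamini-Hochberg adjusted p of 0.05, with 32.6% higher and 38.0% lower after siAARS1, and in 85.1% the 2 groups did not overlap. The median log2 fold change over all genes was -0.05. All 10 HSP90 system genes passed the filter on low values, each with more than 10 CPM in every library. By the same criterion 9 of the 10 were called, with 5 higher (HSP90AA1, HSP90AB1, HSP90B1, HSF2 and PTGES3) and 4 lower (TRAP1, HSF1, STIP1 and CDC37), and all 10 had groups that did not overlap. Their median log2 fold change was 0.13. Of the 10, HSP90AA1 and HSP90B1 were called and at least 2-fold higher, as were 10.6% of all genes. Because the genes were selected on this contrast, HSP90AA1 for its rise, nothing is read from any of these counts.

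**Figure D1:**
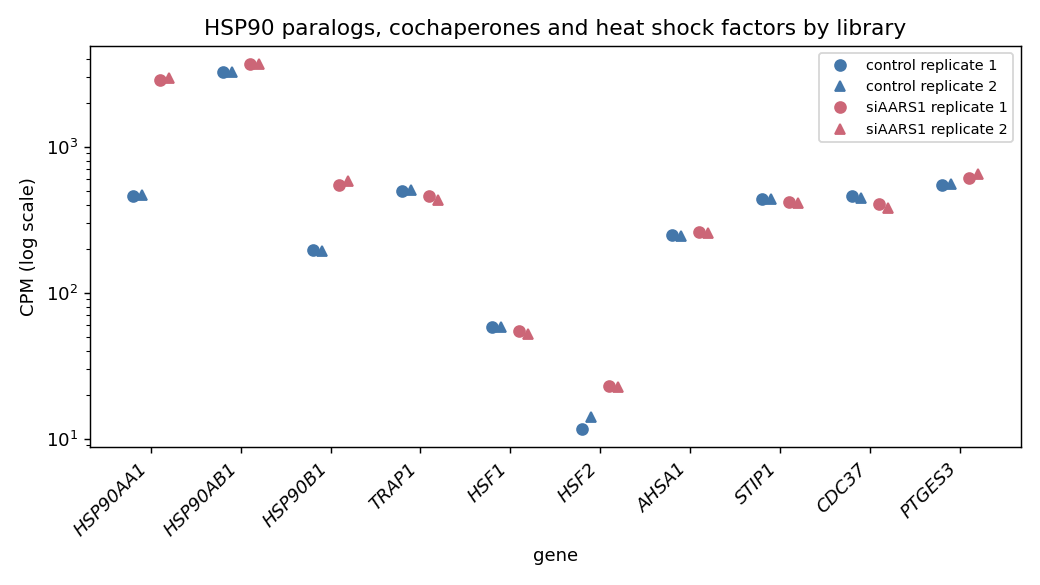
CPM (log scale) of the 10 genes in each of the 4 libraries, with control libraries in blue and siAARS1 libraries in red, and circles and triangles for replicates 1 and 2. HSP90AA1 moved from 458 and 466 CPM to 2867 and 2963 CPM, while HSP90AB1 lay between 3254 and 3685 CPM in all 4 libraries.

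HSP90AA1 and HSP90AB1, the cytosolic paralogs, moved by very unequal amounts. HSP90AA1 (ENSG00000080824, chr14:102080738-102139699, minus strand, GRCh38) read 458 and 466 CPM in controls and 2867 and 2963 CPM after siAARS1. Both siAARS1 values lay far above both controls. The mean went from 462 ± 5.64 to 2915 ± 67.9 CPM (SD, n = 2), a 6.31-fold difference with a log2 fold change of 2.66 (SE 0.0345). Replicate SDs were thus small beside the difference. Its log2 fold change ranked 68 of 14199 from the top, and among the 2097 genes with at least 100 CPM in the controls it ranked 2, behind ATAD2, a chromatin-bound bromodomain ATPase (2.85).

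HSP90AB1 (ENSG00000096384, chr6:44246166-44253888, plus strand) read 3254 and 3261 CPM in controls and 3685 and 3678 CPM after siAARS1. The groups did not overlap, but the constitutive paralog moved little. The mean went from 3258 ± 4.51 to 3682 ± 5.20 CPM (SD, n = 2), a fold of 1.13 and a log2 fold change of 0.18 (SE 0.0351). This small difference changed sign when libraries were scaled to their medians (log2 fold change -0.041). The difference between the paralogs' log2 fold changes was 2.48 (SE 0.0492) and is a description, since the pair was chosen for it. It was 2.45 to 2.50 when any 1 library was left out and 1.98 after a correction for GC content and transcript length.

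Levels of different genes can be compared only per length, and they were here divided by the length of the longest principal transcript in kilobases. In the control libraries HSP90AB1 stood at 1218 ± 1.69 CPM per kb, TRAP1 at 218 ± 1.91, HSP90AA1 at 137 ± 1.67 and HSP90B1 at 68.3 ± 0.593 (SD, n = 2). After siAARS1 the order was HSP90AB1 at 1377 ± 1.95 CPM per kb, HSP90AA1 at 863 ± 20.1, HSP90B1 at 198 ± 7.15 and TRAP1 at 195 ± 8.60. HSP90AA1 thus passed TRAP1 and remained below HSP90AB1. HSP90B1 (193 and 203 CPM per kb) and TRAP1 (201 and 189) then overlapped and were not told apart.

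The summed level of the cytosolic pair went from 1355 ± 3.36 to 2240 ± 18.1 CPM per kb (SD, n = 2), 1.65-fold. HSP90AA1 made up 10.0% and 10.2% of that sum in the control libraries and 38.1% and 38.9% in the siAARS1 libraries. Most of the added cytosolic HSP90 transcript on this scale was therefore HSP90AA1. HSP90AB1 exceeded HSP90AA1 8.99-fold and 8.85-fold in the controls and 1.62-fold and 1.57-fold after siAARS1. The siAARS1 share was 37.6% with the longest transcript of each gene and 44.2% with no length division. It was not computed after the correction for GC content and length, which reduced the difference between the paralogs' log2 fold changes to 1.98. In each library's own ranking by CPM, HSP90AA1 stood at 291 and 287 in the controls and at 17 and 15 after siAARS1, and HSP90AB1 at 14 in both controls and 8 in both siAARS1 libraries.

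**Figure D2:**
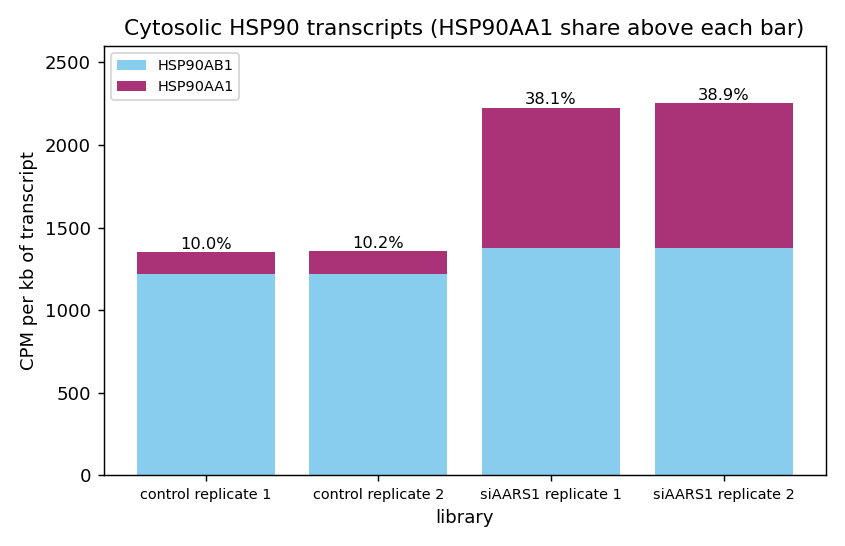
Stacked bars of CPM per kb of transcript for HSP90AB1 (light blue) and HSP90AA1 (purple) in each library, with the share of HSP90AA1 printed above each bar. The HSP90AB1 segment went from 1218 to 1377 CPM per kb on average, and the HSP90AA1 share from about 10.1% to 38.5%.

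Both genes have near-identical pseudogenes. Of the 4083 distinct 50-base windows in HSP90AA1 transcripts, 14.9% also occurred in transcripts of other genes, most of them in HSP90AA2P. For HSP90AB1 this was 16.6% of 2973 windows, most of them in HSP90AB3P. HSP90AA1 and HSP90AB1 shared no 50-base window with each other, and none of the 14 HSP90 pseudogene symbols looked for was listed. How reads that match a pseudogene were assigned is not given in the sources used here. An overlap of 197 bases with WDR20 on the opposite strand touches HSP90AA1, and whether counting used strand is not stated either.

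HSP90B1, the endoplasmic reticulum paralog (ENSG00000166598, chr12:103930107-103953645, plus strand), read 550.4 and 579 CPM after siAARS1, against 196 and 194 CPM in controls. The groups were well separated. The mean went from 195 ± 1.70 to 565 ± 20.4 CPM (SD, n = 2), 2.89-fold, with a log2 fold change of 1.53 (SE 0.0371). After the correction for GC content and length the log2 fold change was 1.07. C12orf73 overlaps HSP90B1 on the opposite strand over 3444 bases and read 11.4 CPM in control replicate 1, far below HSP90B1.

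TRAP1, the mitochondrial paralog (ENSG00000126602, chr16:3651639-3717597, minus strand), read 496 and 503 CPM in controls and 462 and 435 CPM after siAARS1. It was the only paralog that was lower after siAARS1 on the deposited scale. The mean went from 499 ± 4.39 to 448 ± 19.7 CPM (SD, n = 2), with a log2 fold change of -0.16 (SE 0.0370), and this turned to 0.14 after the correction for GC content and length.

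HSF1 (ENSG00000185122, chr8:144291591-144314722, plus strand) read 58.4 and 58.2 CPM in controls and 54.2 and 51.8 CPM after siAARS1. Its transcript was slightly lower while HSP90AA1 was higher, and transcript level does not report HSF1 activity, which is set by trimerization and phosphorylation of the protein. The log2 fold change was -0.14 (SE 0.0516), turned to 0.20 after the GC and length correction, and did not pass the threshold in edgeR (-0.10), in DESeq2 (-0.086) or without control replicate 1 (-0.13), control replicate 2 (-0.14) or siAARS1 replicate 2 (-0.10). HSF2 (ENSG00000025156, chr6:122399546-122433119, plus strand), a second heat shock factor that can form trimers with HSF1, read 11.6 and 14.2 CPM in the controls and 22.9 and 22.4 CPM after siAARS1. HSF2 had the lowest level of the 10 genes and the widest relative spread between controls. Its log2 fold change was 0.77 (SE 0.0895), the same as the 0.77 median of the genes of similar GC content described below, and 0.24 after the correction.

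The cochaperones differed by small amounts, with siAARS1 means between 0.866 and 1.15 of the control means. PTGES3 (ENSG00000110958, chr12:56663341-56688408, minus strand) read 546 and 553 CPM in the controls and 612 and 649 CPM after siAARS1, a log2 fold change of 0.20 (SE 0.0364). AHSA1 (ENSG00000100591, chr14:77457870-77469474, plus strand) read 247 and 243 CPM in the controls and 261 and 256 CPM after siAARS1, a log2 fold change of 0.08 (SE 0.0367). PTGES3 was thus the only one of the 4 called higher, and AHSA1 was the only one of the 10 genes not called. Both signs turned when libraries were scaled to their medians (PTGES3 -0.021, not called, and AHSA1 -0.14, called lower). That of PTGES3 also turned after the GC and length correction (-0.25).

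STIP1 (ENSG00000168439, chr11:64185272-64204543, plus strand) read 419.8 and 409 CPM after siAARS1, against 441 and 439 CPM in controls, a log2 fold change of -0.09 (SE 0.0349). CDC37 (ENSG00000105401, chr19:10391134-10420121, minus strand) read 462 and 442 CPM in the controls and 405 and 378 CPM after siAARS1, a log2 fold change of -0.21 (SE 0.0390). Both were lower on the deposited scale without overlap of the groups. After the GC and length correction both signs turned, to 0.12 for STIP1 and 0.11 for CDC37. The call of STIP1 was lost in edgeR (-0.049), in DESeq2 (-0.035) and without control replicate 1 (-0.08), control replicate 2 (-0.09) or siAARS1 replicate 2 (-0.07). PDE4A, which overlaps CDC37 on the opposite strand over 3349 bases, read 147 CPM in control replicate 1, so with unstranded counting part of either value could belong to the other gene.

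Per kilobase, PTGES3 (285 and 288 CPM per kb) and CDC37 (287 and 275) overlapped in the controls, above STIP1 (201 and 199.9) and AHSA1 (176 and 173). After siAARS1, PTGES3 (319 and 338 CPM per kb) stood above CDC37 (252 and 235). STIP1 (191 and 186.4) and AHSA1 (186.2 and 183) were then separated by less than the gap between their own replicates. HSP90AA1, below all 4 of these cochaperones in the controls at 135 and 138 CPM per kb, was above all of them after siAARS1 at 849 and 877 CPM per kb.

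Fold changes across the transcriptome followed the base composition of the transcripts. Among 13819 tested genes with a GC value, split into 5 equal groups, the median log2 difference stood at 0.77 in the lowest GC group (27.8% to 41.5% GC) and 0.21, -0.12, -0.24 and -0.30 in the groups above it. The 5 HSP90 system genes called higher had GC contents of 40.6% to 48.1%, the 4 called lower had 52.8% to 63.9%, and AHSA1 lay between them at 51.7%. The direction of the small changes thus ordered with GC content, as it did across all genes. HSP90AA1 (43.0% GC) was above 99.6% of the genes in its GC group, and HSP90B1 (42.4%) above 94.6%. PTGES3 (40.6%) was above only 18.7% of its group although its own value was positive. The part of base composition in the fold changes was not tested beyond the correction, under which HSP90AA1 kept a log2 fold change of 2.21 and HSP90AB1 one of 0.24.

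**Figure D3:**
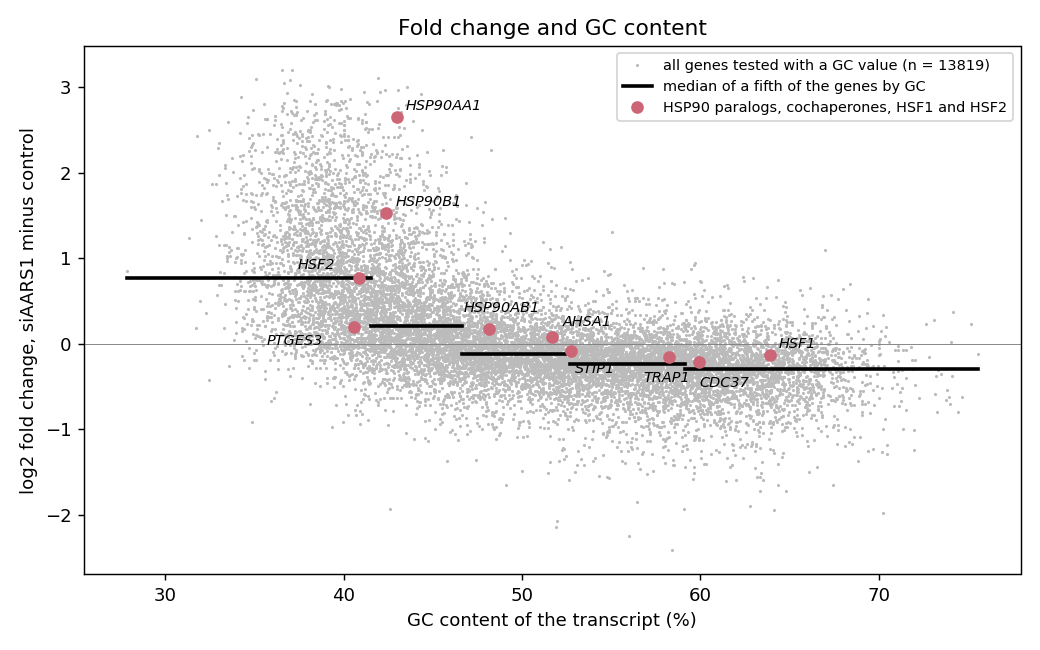
Log2 fold change (siAARS1 minus control, log2(CPM + 1) scale) against GC content of the longest principal transcript, with 13819 genes in grey, black bars at the median of each of 5 equal GC groups (0.77 in the lowest, -0.30 in the highest) and the 10 HSP90 system genes in red. HSP90AA1 and HSP90B1 lay well above the bar of their group, and HSF2 lay on its bar.

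**Figure D4:**
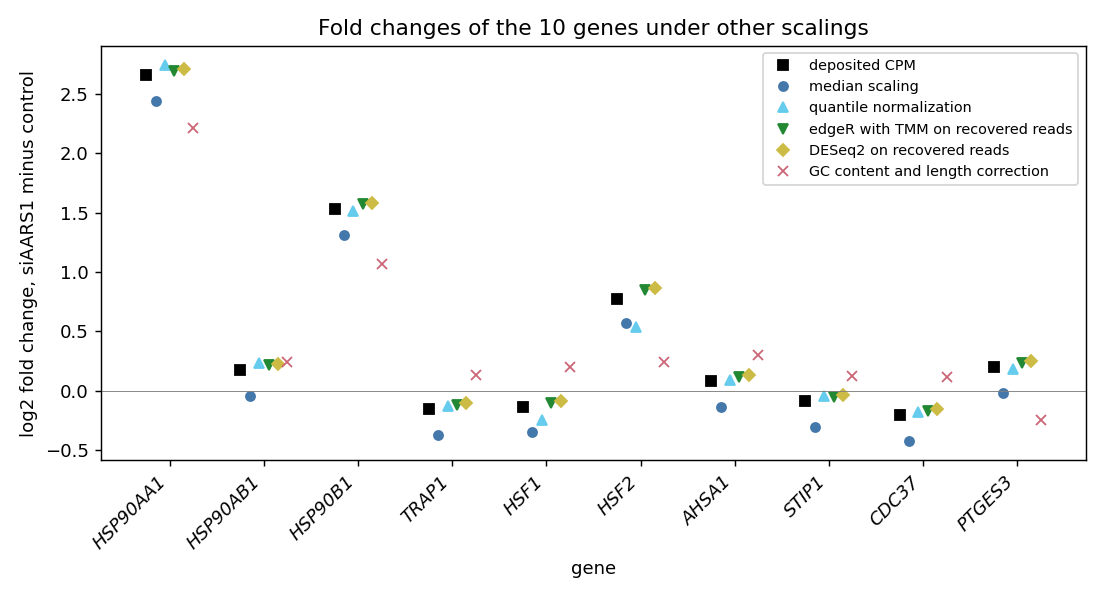
Log2 fold change (siAARS1 minus control) of the 10 genes from the deposited CPM and under 5 other treatments of the same data, with 1 marker for each. HSP90AA1 ranged from 2.21 to 2.75, and HSP90AB1, TRAP1, HSF1, AHSA1, STIP1, CDC37 and PTGES3 had markers on both sides of 0.

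The genes whose profile over the 4 libraries was most like that of HSP90AA1 were UPF2, ZHX1, POSTN, LIFR and SMG1, by Euclidean distance of centred log2(CPM + 1) values (0.0130, 0.0320, 0.0367, 0.0575 and 0.0584) among 10693 candidates with at least 5 CPM in both groups. UPF2 and SMG1 act in nonsense-mediated decay, ZHX1 is a homeobox repressor, POSTN encodes the matrix protein periostin and LIFR a cytokine receptor. Their log2 fold changes were 2.65, 2.66, 2.69, 2.67 and 2.71, in the order first given, and their GC contents 40.3%, 39.3%, 39.0%, 36.2% and 43.2%. With only 4 libraries in 2 groups, likeness mostly means a similar fold change. SMG1 has duplicated copies on chromosome 16, so its count is uncertain.

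Among 27 further cochaperones measured of 28 listed by function, 13 rose, 8 fell and 6 did not pass (77.8% called, against 70.7% of all genes), with a median log2 fold change of 0.08 against -0.05. RPAP3, a scaffold of the R2TP complex, rose most, from 8.33 and 8.45 CPM to 43.3 and 47.3 CPM (log2 fold change 2.30, limma adjusted p 9.41e-17). FNIP1, which slows the HSP90 ATPase, rose by 1.54 (adjusted p 2.86e-11, limma), and CHORDC1, an HSP90-binding zinc protein, by 1.18 (adjusted p 1.37e-13, limma). PIH1D1, the R2TP partner of RPAP3, fell by 0.51 (adjusted p 1.12e-07, limma), a sign opposite to that of RPAP3. FKBP8, an immunophilin of the outer mitochondrial membrane, fell by 0.50 (adjusted p 7.76e-11, limma), and UNC45A, a myosin chaperone, by 0.36 (adjusted p 4.80e-07, limma). The GC and length correction reduced RPAP3 to 1.11, FNIP1 to 1.09, CHORDC1 to 0.44, PIH1D1 to -0.21 and FKBP8 to -0.15, and the call of UNC45A was lost (-0.065). The risers of this list had 35.7% to 48.6% GC and those that fell 51.1% to 66.6%.

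Of the heat shock factors and their binders, 4 of 7 listed were measured, and 1 was called higher and 1 lower. This was 50% called, against 70.7% of all genes. The called genes were HSF2 and HSF1 themselves, which belong to the genes selected on this contrast. The list thus added no called gene of its own. HSF4 and HSBP1 were not called, and without control replicate 1, control replicate 2 or siAARS1 replicate 2 only 1 call was left. The median log2 fold change of the 4 was -0.05.

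All 16 chaperone genes listed as HSF1 targets passed the test, 7 of them higher and 9 lower, against 70.7% of all genes called, 32.6% higher and 38.0% lower. Their median log2 fold change was -0.38, and -0.13 after the GC and length correction, so the list did not move one way. HSPH1 (HSP110, a nucleotide exchange factor of HSP70) rose from 35.5 and 36.6 CPM to 160 and 172 CPM (2.17, limma adjusted p 1.61e-19), its relative HSPA4L from 7.39 and 8.70 CPM to 40.7 and 38.6 CPM (2.17, limma adjusted p 1.38e-15), and the mitochondrial chaperonin HSPD1 from 574 and 589 CPM to 1406 and 1424 CPM (1.28, limma adjusted p 2.02e-18). HSPA6, a strictly stress-inducible HSP70, fell from 22.3 and 22.6 CPM to 3.27 and 3.52 CPM (-2.42, limma adjusted p 4.39e-15). BAG3, an HSP70 cochaperone of selective autophagy, fell from 36.5 and 39.2 CPM to 22.1 and 20.2 CPM (-0.81, limma adjusted p 9.72e-10). HSPA1A fell by 1.12 (limma adjusted p 2.81e-05) at 1.41 to 6.36 CPM, a call lost in DESeq2 and uncertain because HSPA1B is nearly identical. HSPA1B, named after its values were seen, fell from 370 and 357 CPM to 236 and 239 CPM (-0.61), and being picked for its values it adds no support. On the deposited scale HSPA6 thus fell while HSP90AA1 and HSPH1 were higher. The correction reduced HSPA4L to 0.74 and HSPH1 to 1.19, and left HSPD1 at 1.06, HSPA6 at -2.14, BAG3 at -0.55 and HSPA1A at -0.87. The 7 that rose had 38.1% to 50.2% GC and the 9 that fell 53.0% to 64.5%, so the direction ordered with GC content here too.

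Among 22 measured client genes of 24, 8 rose, 10 fell and 4 did not pass (81.8% called against 70.7% of all genes), with a median of -0.03. The hypoxia factor HIF1A rose from 23.6 and 24.1 CPM to 123 and 137 CPM (2.39, limma adjusted p 2.73e-19), the cell cycle kinase CDK6 rose by 1.73 (limma adjusted p 5.16e-14) and the Hippo kinase LATS1 by 1.35 (limma adjusted p 4.21e-11). Its paralog LATS2 fell by 0.42 (limma adjusted p 0.000165) and the kinase SRC by 0.76 (limma adjusted p 5.70e-07). The receptor EGFR fell by 0.42 (limma adjusted p 0.0137), at low values, from 3.87 and 3.59 CPM to 2.95 and 2.17 CPM. Client transcripts thus moved in both directions, and client protein was not measured here. The calls of LATS1 under the GC and length correction and of EGFR in DESeq2 were lost, and with the correction 11 genes were called in place of 18, 5 higher and 6 lower. The correction reduced CDK6 to 0.40, HIF1A to 1.51, LATS1 to 0.14, SRC to -0.46 and LATS2 to -0.29, while EGFR went to -0.61. The 8 that rose on the deposited scale had 39.1% to 53.6% GC and the 10 that fell 47.5% to 64.2%, so these ranges overlapped.

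HSP90B1 was higher while most of its partners in the endoplasmic reticulum were lower on the deposited scale. Of the 14 genes listed, all measured, 1 rose, 10 fell and 3 did not pass (78.6% called against 70.7% of all genes), with a median of -0.17. After the GC and length correction the same list gave 4 higher and 6 lower, with a median of -0.073, beside 1.07 for HSP90B1, so the contrast was weaker. Under median scaling, quantile normalization, edgeR and DESeq2, 1 was called higher and 13, 10, 8 and 7 lower. The riser on the deposited scale was CANX (calnexin), from 860.0 and 872 CPM to 1338 and 1365 CPM (0.64, limma adjusted p 2.50e-13), and it lost both its call and its sign under the GC and length correction (-0.05). CNPY4 fell by 0.57 (limma adjusted p 7.82e-09), SDF2L1 by 0.43 (limma adjusted p 1.06e-07) and the disulfide isomerase PDIA4 by 0.42 (limma adjusted p 5.80e-10). The correction left -0.36 for CNPY4 and -0.24 for PDIA4, and the call of SDF2L1 was lost (-0.098). HSPA5 (BiP), named after its values were seen as the best-known unfolded protein response gene, went from 852 and 859 CPM to 792 and 795 CPM (-0.11).

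Of 13 mitochondrial partners of TRAP1, 7 rose, 5 fell and 1 did not pass (92.3% called against 70.7% of all genes), with a median of 0.13. HSPD1 and HSPE1, both called higher, are in this list as well as in that of HSF1 targets. CLPX, the unfoldase of the matrix protease, rose by 0.88 (limma adjusted p 2.30e-11) and the mitochondrial HSP70 gene HSPA9 by 0.73 (limma adjusted p 3.30e-14). The protease subunit CLPP fell by 0.42 (limma adjusted p 3.37e-08), the respiratory subunit SDHA, a TRAP1 interactor, by 0.37 (limma adjusted p 2.33e-08) and the disaggregase CLPB by 0.27 (limma adjusted p 0.000371). CLPX and CLPP, which form a single protease, had opposite signs, but the GC and length correction left 0.14 for CLPX, -0.088 for CLPP, 0.25 for HSPA9 and -0.13 for SDHA, while CLPB went to -0.57. The 7 that rose had 38.9% to 54.3% GC (median 44.2%) and the 5 that fell 47.2% to 63.4% (median 55.1%), so in this list the ranges overlapped.

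**Figure D5:**
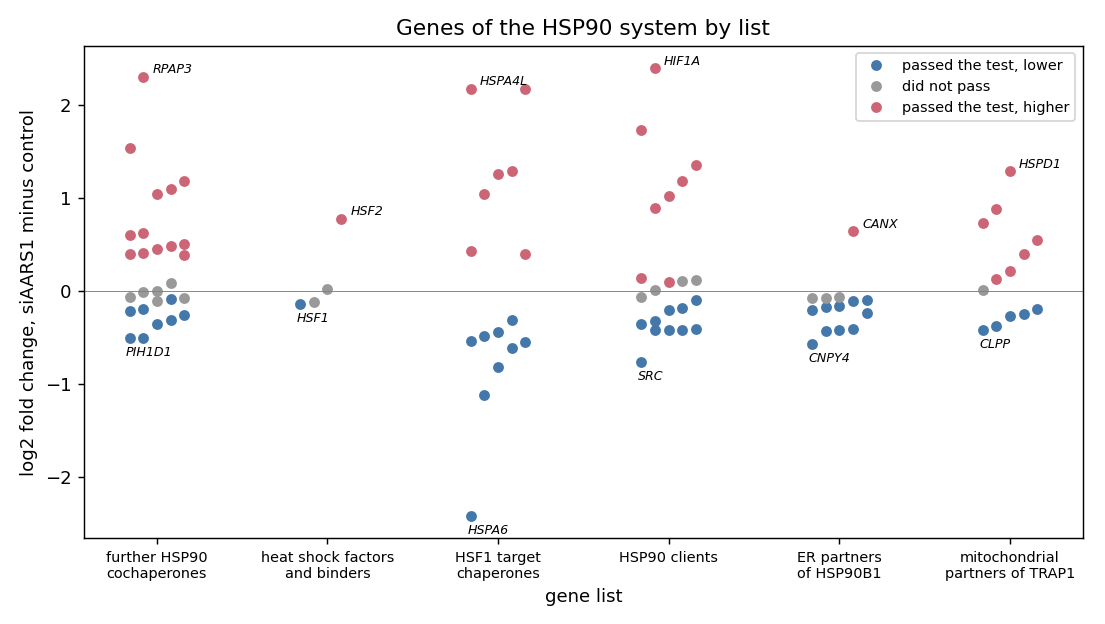
Log2 fold change (siAARS1 minus control) of each measured gene in 6 lists of the HSP90 system, in red where it passed limma and was higher, in blue where it passed and was lower, and in grey where it did not pass. The highest and lowest gene of each list is named, and every list had genes called in both directions on this scale. CANX (0.64) was the only riser among the endoplasmic reticulum partners here, whereas after the GC and length correction 4 of them were called higher, 6 lower, and CANX was not called.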

How the data were processed

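RNA-seq was measured in 2 control and 2 siAARS1 libraries, grouped by the sample titles. The authors deposited CPM values for 14431 genes. RSEM 1.3.3 and hg38 appear in the submitters' processing notes, and the annotation, strand setting and scaling are not given in the sources used here. CPM corrects for neither length nor GC content. In all libraries 100% of values were whole multiples of 1 read (within 0.1 read), so reads could be recovered for edgeR 4.0.16 (TMM, quasi-likelihood) and DESeq2 1.42.0 as alternatives. A count of 0 allows up to 3 reads, or 0.0880 to 0.0971 CPM, counting error only.

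The fold changes came from limma 3.58.1 (eBayes with trend, R 4.3.3, two-sided) on log2(CPM + 1), siAARS1 against control over all 4 libraries, for 14199 genes (mean of 1 CPM or more in either group). On this scale changes at low CPM are understated. P-values were adjusted by Benjamini-Hochberg over all genes tested (threshold 0.05). SE is limma's moderated standard error, and SD is over n = 2. The script was tested on simulated data. The difference between the fold changes of HSP90AA1 and HSP90AB1 and the share of HSP90AA1 were values without a test.

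Gene positions, transcript lengths and GC content were those of GENCODE v29 (GRCh38), for the longest principal transcript. Promoters were from RefSeq (GRCh38.p14).

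The genes and lists were chosen with earlier results of these data known. Lists were written by role (27 further cochaperones measured, heat shock factors and binders, HSF1 target chaperones, clients, partners of HSP90B1 and of TRAP1), and from each the 3 called genes with the highest and the 3 with the lowest fold change are named, with AARS1 and the 5 genes most like HSP90AA1. Alternatives were a pseudocount of 0.1, no filter, a filter of 10 CPM, median scaling, quantile normalization, a replicate block, each library left out, edgeR, DESeq2, a smooth correction for GC content and length (mgcv 1.9.3, trend fitted on genes of at least 5 CPM), the correction with the block, and a threshold of 0.01. The authors' own comparisons were not used.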

Additional observations from a re-analysis of the deposited data

How the results depend on the processing

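Over the 15 alternatives run the log2 fold change ranged from 2.21 to 2.75 for HSP90AA1, 1.07 to 1.58 for HSP90B1 and 0.24 to 0.90 for HSF2, a description that adds no support, since the genes were chosen on this contrast. The count of called HSP90 system genes ranged from 7 to 10. After the correction for GC content and length all 10 were called, 9 higher and 1 lower, in place of 5 higher and 4 lower. Over all 13819 genes that correction gave 4342 higher and 4718 lower. The smaller changes depended on scaling. Median scaling, which moved the median of all genes from -0.05 to -0.25, turned HSP90AB1 (-0.041), AHSA1 (-0.14) and PTGES3 (-0.021), called 3438 genes higher and 7887 lower in place of 4633 and 5399, and called 4 heat shock factors and binders in place of 2. The correction for GC content and length turned TRAP1 (0.14), HSF1 (0.20), STIP1 (0.12), CDC37 (0.11) and PTGES3 (-0.25), with the same values under the replicate block, gave 11 client calls in place of 18 with or without the block, gave 4 partners of HSP90B1 higher and 6 lower in place of 1 and 10, and reduced the difference between HSP90AA1 and HSP90AB1 from 2.48 to 1.98. Quantile normalization gave 2.51 for that difference, and leaving out 1 library gave 2.45 to 2.50. The heat shock factor list gave 1 call in edgeR, in DESeq2 and at a threshold of 0.01, and 1 to 2 calls when 1 library was left out. HSF1 was not called at 0.01 (-0.14), in edgeR (-0.10) or in DESeq2 (-0.086), and STIP1 was not called at 0.01 (-0.086), in edgeR (-0.049), in DESeq2 (-0.035) or under quantile normalization (-0.044). Leaving out 1 library gave -0.17 to -0.10 for HSF1 and -0.10 to -0.068 for STIP1. AHSA1 was called higher under quantile normalization (0.090), in edgeR (0.12) and in DESeq2 (0.13), and after the GC correction (0.30). Under median scaling it was called lower (-0.14). DESeq2 called 4498 genes higher and 3830 lower in all. The siAARS1 share of HSP90AA1 was 37.6% with longest transcripts and 44.2% without length, and was not computed after the GC correction. The cause of these changes was not tested.

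With a replicate block 10389 genes were called in place of 10032, and no call of the 10 genes changed. The correlation of deviations between libraries with the same number was 0.118 over 14199 genes, from only 2 pairs, and no label says that numbers pair the libraries. With 2 libraries a group, leaving 1 out leaves a lone sample that is assumed to vary like the other group, and the calls over all genes then ranged from 8905 to 9326. At 30653210 reads or more per library, depth limits little for the 10 genes except HSF2, at 11.6 to 22.9 CPM.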
